A study of Mus musculus with 9 samples.

Results

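The genes described here encode proteins that build, bind or take apart the microtubules of young neurons: doublecortin (Dcx) and its relatives Dclk1 and Dclk2, the beta tubulin Tubb3, the stathmins Stmn1, Stmn2, Stmn3 and Stmn4, and the microtubule-associated proteins Map2 and Mapt. They were chosen by symbol, with earlier results of these data known, and all 10 were among the 18329 genes of the deposited table. Counts of these genes set beside shares of all genes are therefore descriptions and not tests of the set. Total RNA was sequenced from neuroglial progenitors of the TVZ, the ventricular zone that lines the third ventricle, taken on postnatal day 1 from untreated Nestin-CFPnuc mice with a C57/BL6 background. Every group carries this reporter, a nuclear form of the fluorophore CFP under the promoter of Nestin. Flow sorting by CFP and by CD133 (prominin-1, the product of Prom1) gave CD133+Nestin+, Nestin+ and CD133+ cells, with 3 libraries in each group. Whether the single-marker groups were negative for the second marker is not stated, and neither is the origin of the libraries in separate mice or cultures. P-values therefore describe the spread between these libraries, which may be technical.

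Microtubules are hollow polymers of alpha and beta tubulin. In a migrating neuroblast they pull the nucleus forward and extend the leading process. Doublecortin-type proteins bind along the polymer and stabilise it, stathmins hold free tubulin and promote disassembly, and MAP2 and tau bind the microtubules of dendrites and axons. Dcx and Tubb3 are widely used as markers of newborn neurons, whereas Stmn1 is also abundant in many dividing cells.

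Levels are in CPM, reads scaled to 1000000 per library, a unit inferred from the deposited values. The listed genes took up 65.9% to 87.7% of that total, and 1 read stood for 0.0285 to 0.0344 CPM. A level of 3 reads is thus 0.0856 to 0.103 CPM, a limit of counting error alone. CD133+Nestin+ replicate 2 stood apart: it correlated with the other libraries at r = 0.845 to 0.918 across all listed genes, while the other 8 correlated among themselves at 0.872 to 0.975. The sorted markers followed the labels. Prom1 averaged 147 ± 32.7 CPM in CD133+Nestin+, 51 ± 10.3 in Nestin+ and 169 ± 20 in CD133+ libraries, and Nes averaged 198 ± 22.6, 173 ± 20 and 51.2 ± 10.1 CPM in the same order of groups (SD, n = 3 each).

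The promoters of Dcx, Map2 and Tubb3 are shown because the first pair gave called differences between groups and the last followed the sort number. Each is the RefSeq window of 250 bases before to 50 bases after a transcript start (GRCm38.p6), read 5′ to 3′ on the gene's strand. The Dcx window, for the outermost of its RefSeq starts, is chrX:143933170-143933469 on the minus strand, the Map2 window is chr1:66175079-66175378 on the plus strand, and the Tubb3 window is chr8:123411303-123411602 on the plus strand. Capitals mark matches, on either strand, to the TATA box spelled TATAAA, the CCAAT box, the GC box spelled GGGCGG, the E-box spelled CAGCTG, and its variant spelled CAGATG.
Dcx: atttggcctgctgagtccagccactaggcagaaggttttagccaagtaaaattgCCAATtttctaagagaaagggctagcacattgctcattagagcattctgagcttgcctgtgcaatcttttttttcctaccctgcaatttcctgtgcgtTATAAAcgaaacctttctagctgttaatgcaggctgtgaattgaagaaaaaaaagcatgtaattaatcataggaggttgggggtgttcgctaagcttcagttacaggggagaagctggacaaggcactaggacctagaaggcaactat
Map2: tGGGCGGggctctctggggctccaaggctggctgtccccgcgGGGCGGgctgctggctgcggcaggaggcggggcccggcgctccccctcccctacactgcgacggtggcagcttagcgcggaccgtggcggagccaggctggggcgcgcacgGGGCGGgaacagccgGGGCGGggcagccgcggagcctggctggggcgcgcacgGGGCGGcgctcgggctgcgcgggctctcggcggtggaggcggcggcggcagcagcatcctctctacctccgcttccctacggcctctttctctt
Tubb3: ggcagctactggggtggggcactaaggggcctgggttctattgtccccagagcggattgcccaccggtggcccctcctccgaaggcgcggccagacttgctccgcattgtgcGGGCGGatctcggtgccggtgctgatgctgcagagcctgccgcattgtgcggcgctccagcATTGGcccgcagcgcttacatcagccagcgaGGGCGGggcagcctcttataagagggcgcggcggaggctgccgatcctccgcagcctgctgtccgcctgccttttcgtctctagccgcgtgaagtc
The Dcx window holds TATAAA and CCAAT once each and 3 CpG dinucleotides, whereas Map2 holds GGGCGG 5 times and 37 CpG, and Tubb3 holds GGGCGG 2 times, CCAAT once on the opposite strand and 26 CpG. Over 32851 promoter windows of 300 bases the median was 7 CpG. TATAAA was present in 13.6% of these windows, CCAAT in 37.4%, GGGCGG in 35.7%, CAGCTG in 16.3% and CAGATG in 17.2%. The 3 windows therefore differ in base composition from each other, and none holds either E-box spelling searched. These matches describe letters in a window and not bound sites.

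Nestin+ cells had higher levels of Dcx, Stmn4 and Map2 than CD133+ cells, by log2 changes of 2.91, 2.99 and 0.89, so 3 of the 10 genes were called higher and 0 lower. Over all 16143 genes tested, 2.45% were called higher and 9.42% lower in this comparison. Of the called genes 20.6% were higher, against 31.1% with median centring and 33.7% with quantile normalization. With the sort number as a block 7 of the 10 were higher, the others being Dclk1, Dclk2, Tubb3 and Mapt, against 6.06% of all genes. All 10 fold changes were positive, against 7862 of the 16143 genes tested, with a median of 1.14 (log2) where that of all genes tested was -0.02. Stmn1 and Stmn2 had the smallest changes, at 0.19 ± 0.37 and 0.03 ± 0.54 (log2 ± SE).

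**Figure D1:**
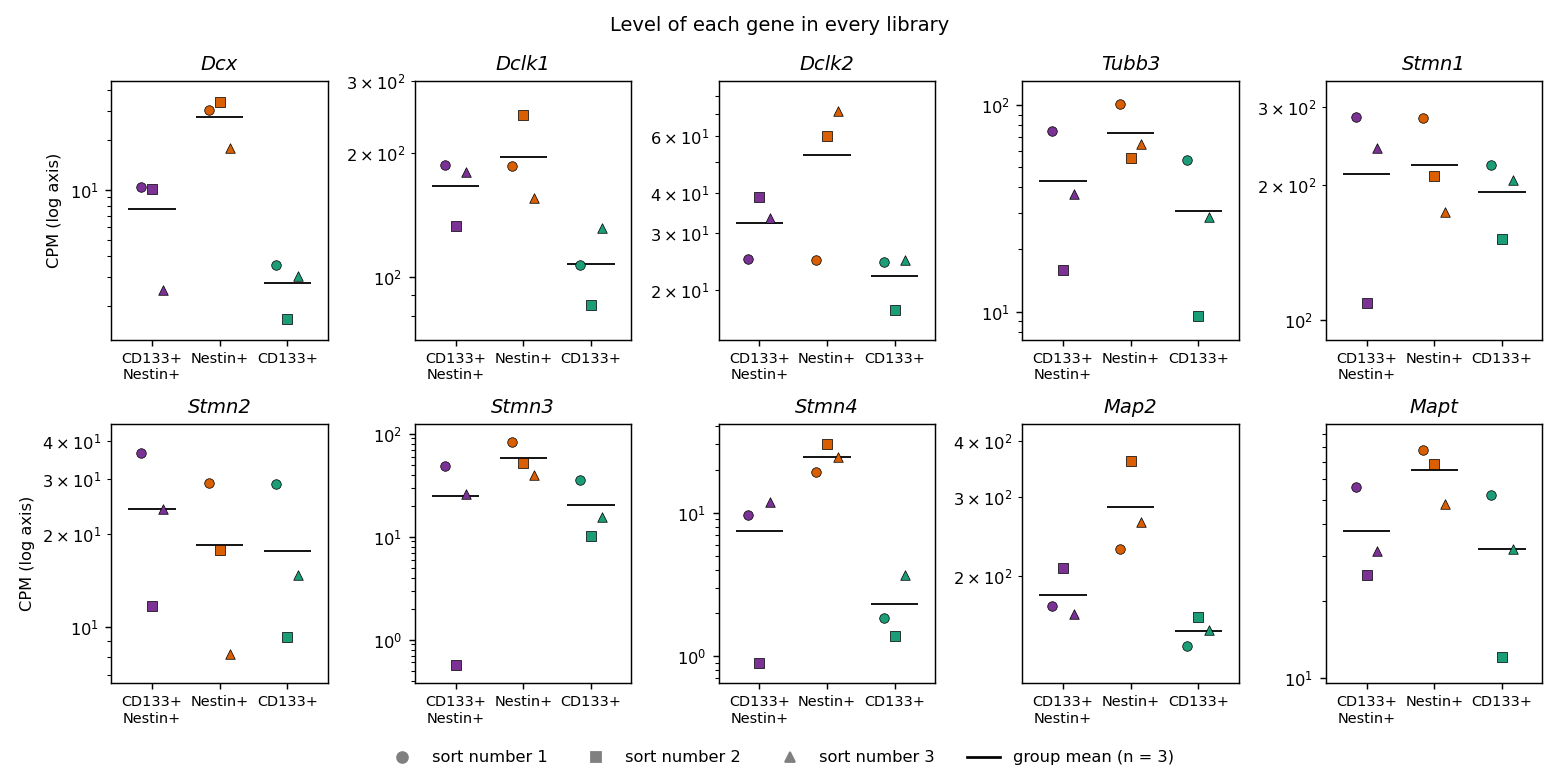
CPM of each gene (log axis, a separate scale for each panel) in the 9 libraries, by group, with the sort number as the symbol and the mean of 3 libraries as a line. In 7 panels every Nestin+ library lies above every CD133+ library, and Stmn3 in CD133+Nestin+ replicate 2 lies at 0.563 CPM.

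Dcx (chromosome X, 143855842 to 143933311, minus strand) encodes the neuroblast protein whose loss in humans causes lissencephaly. It stood at 30.1, 33.8 and 17.9 CPM in Nestin+ replicates 1 to 3, against 3.51, 1.68 and 3.01 CPM in CD133+ replicates 1 to 3. Every Nestin+ library was above every CD133+ library, and the lowest value, 1.68 CPM, corresponded to about 51 reads. The change was 2.91 ± 0.48 (log2 ± SE), with an adjusted p of 0.00253 from limma. The call held whichever library was left out, at changes of 2.69 to 3.18.

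Stmn4 (chromosome 14, 66344296 to 66361680, plus strand) encodes RB3, a stathmin of the nervous system. It stood at 19.2, 30.2 and 24.4 CPM in Nestin+ and at 1.86, 1.38 and 3.67 CPM in CD133+ libraries. The groups did not overlap, and the change of 2.99 ± 0.63 had an adjusted p of 0.00972 in limma. Without Nestin+ replicate 2 the adjusted p was 0.0503 and without CD133+ replicate 2 it was 0.0533, at changes of 2.84 and 2.79.

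Map2 (chromosome 1, 66175273 to 66442583, plus strand), a binder of dendritic microtubules, was the most evenly expressed of the 3. It stood at 230, 362 and 265 CPM in Nestin+ and at 140, 162 and 151 CPM in CD133+ libraries. The groups did not overlap, but the change of 0.89 ± 0.25 passed narrowly, with an adjusted p of 0.0406 in limma. The call was lost without CD133+Nestin+ replicate 3 (adjusted p = 0.0676 in limma), Nestin+ replicate 2 (0.158) or 3 (0.0899), or CD133+ replicate 1 (0.116), 2 (0.0953) or 3 (0.12), while the change stayed between 0.71 and 1.03. Its exons share 124 bases with Gm10558, an antisense gene, whose reads cannot be told apart from its own if strand was not used.

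The count of called genes rested on few libraries. Without Nestin+ replicate 2 or CD133+ replicate 2 it was 1 (Dcx), and without CD133+Nestin+ replicate 2 it was 5, Dclk1 and Stmn3 being added. Median centring also gave 5, and the share of all genes called higher was not computed for it or for the omissions. In bulk RNA fewer cells of a type and less RNA per cell cannot be told apart.

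The doublecortin-like kinases had smaller positive changes than Dcx. They were not called in the main fit but were called with the block. Dclk1 (chromosome 3, 55242364 to 55539068, plus strand) joins doublecortin domains to a kinase and stood at 186, 247 and 155 CPM in Nestin+, against 107, 85.2 and 131 CPM in CD133+ libraries. These groups did not overlap. The change of 0.86 ± 0.28 had an adjusted p of 0.0732 in limma, and 0.0396 with the block. Its exons overlap those of Gm42609 by 87 bases and of Gm21954 by 27 bases on the opposite strand.

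Dclk2 (chromosome 3, 86786151 to 86920852, minus strand), its close relative, stood at 24.9, 60.1 and 71.9 CPM in Nestin+ and at 24.4, 17.4 and 24.7 CPM in CD133+ libraries. Nestin+ replicate 1 lay just above the highest CD133+ library, and the other Nestin+ libraries lay far above. The change was 1.09 ± 0.37, with an adjusted p of 0.0925 in limma and 0.0392 with the block. Without Nestin+ replicate 1 the change was 1.54 and the adjusted p 0.0111.

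Tubb3 (chromosome 8, 123411424 to 123422015, plus strand), the beta tubulin of neurons, stood at 101, 55.2 and 64.7 CPM in Nestin+ and at 54.1, 9.47 and 28.6 CPM in CD133+ libraries. The lowest Nestin+ library exceeded the highest CD133+ library by little, since the values within each group spread widely. The change of 1.49 ± 0.62 had an adjusted p of 0.172 in limma and 0.00608 with the block. Mapt (chromosome 11, 104231390 to 104332090, plus strand), which encodes the axonal protein tau, stood at 78.1, 69 and 48.2 CPM in Nestin+ and at 52.3, 12.1 and 31.9 CPM in CD133+ libraries. Its groups overlapped, since Nestin+ replicate 3 lay below CD133+ replicate 1. The change of 1.19 ± 0.47 had an adjusted p of 0.15 in limma and 0.0327 with the block. Without CD133+ replicate 1 the change was 1.64 and the adjusted p 0.0464.

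Stmn3 (chromosome 2, 181306459 to 181314500, minus strand) encodes SCLIP, a neuronal stathmin. It stood at 83.8, 52.4 and 40.1 CPM in Nestin+ and at 35.3, 10.1 and 15.5 CPM in CD133+ libraries. The groups did not overlap, yet the change of 1.60 ± 1.02 had an adjusted p of 0.416 in limma and 0.173 with the block. The spread is shared over the 3 groups and includes 0.563 CPM (about 17 reads) in CD133+Nestin+ replicate 2; without that library the adjusted p was 0.0333.

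Stmn1 (chromosome 4, 134468320 to 134473843, plus strand) and Stmn2 (chromosome 3, 8509360 to 8561606, plus strand) had overlapping groups. Stmn1, the stathmin found in most growing tissues, stood at 282, 209 and 175 CPM in Nestin+ and at 222, 152 and 205 CPM in CD133+ libraries (adjusted p = 0.833 in limma). Stmn2, or SCG10, a growth cone protein, stood at 29.2, 17.7 and 8.17 CPM in Nestin+ and at 28.9, 9.24 and 14.7 CPM in CD133+ libraries (adjusted p = 0.982 in limma). For Stmn2 the sign turned, to between -0.37 and -0.02, without Nestin+ replicate 1 or 2 or CD133+ replicate 2 or 3. A miRNA gene of 66 bases lies within the Stmn1 exons on the same strand.

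Between groups that did not overlap, 7 of the 10 genes were higher in Nestin+ than in CD133+ cells and 0 were lower, where 11.8% and 21.1% of all genes tested were. Within sort numbers, each of which holds 1 library of every group, 8 of the 10 were higher in all 3, against 26.0% of all genes, and 0 were lower in all 3, against 31.7%. The exceptions were Stmn1 and Stmn2, which were lower by 0.23 and 0.78 (log2) within sort number 3. The median difference was 0.76 within sort number 1, 2.00 within sort number 2 and 0.98 within sort number 3. The authors' deposited table, for Nestin+ over CD133+, gave ratios of 9.99 for Dcx, 10.7 for Stmn4 and 1.89 for Map2, and put those 3 of the 10 genes at a false discovery rate below 0.05. The share of all genes below that rate in the authors' table was not computed.

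**Figure D2:**
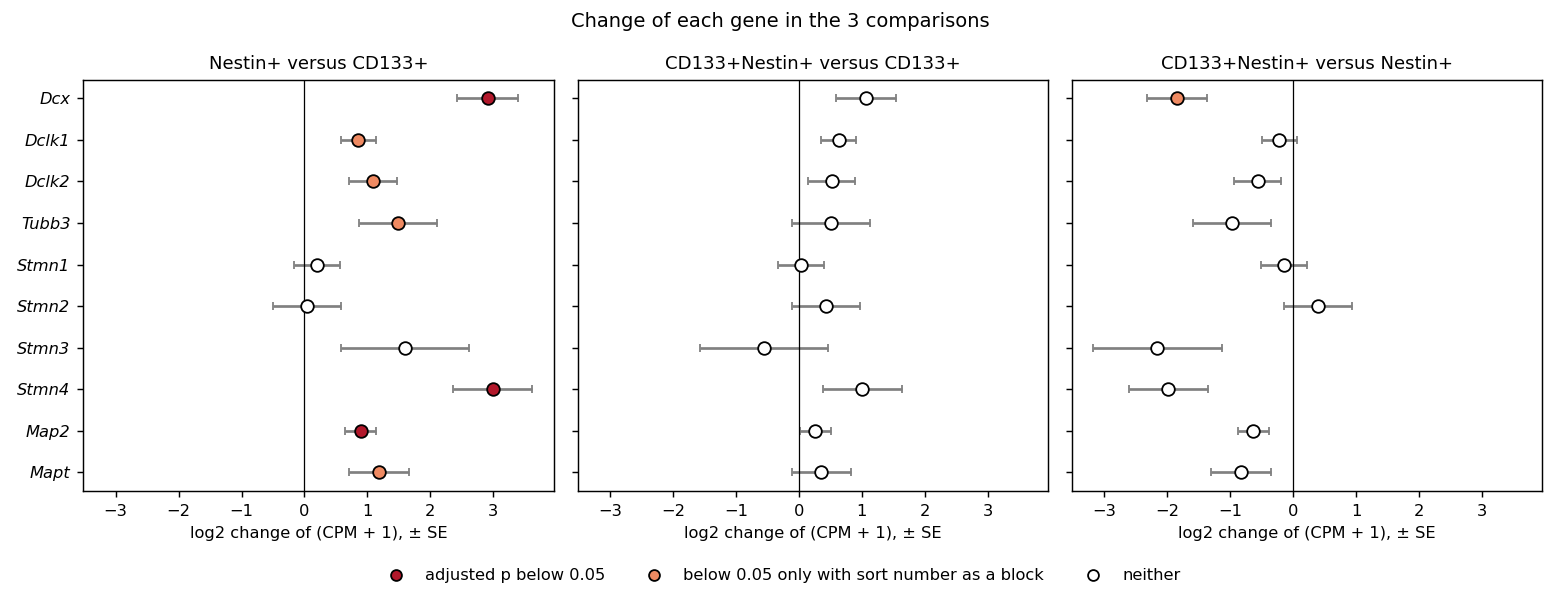
Log2 change of (CPM + 1) with its SE for each gene in the 3 comparisons, coloured by whether the adjusted p from limma was below 0.05 without a block, only with the sort number as a block, or neither. Dcx, Stmn4 and Map2 are called in the Nestin+ versus CD133+ panel, and with the block alone Dcx is called in the CD133+Nestin+ versus Nestin+ panel.

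Between CD133+Nestin+ and CD133+ cells limma called 0 of the 10 genes higher and 0 lower. Over all genes tested 0.297% were called higher and 2.12% lower. Unadjusted p was below 0.05 for Dcx and Dclk1, and 0 of the 10 passed with the block, against 1.12% of all genes higher and 3.69% lower. The authors' deposited table likewise had 0 of the 10 at a false discovery rate below 0.05 and 2 at p below 0.05. Shares of all genes were not computed at unadjusted p or for the authors' table. The median change was 0.47 (log2) where that of all genes was -0.06, and 9 of the 10 were positive, against 7205 of the 16143 genes tested. This comparison uses the same CD133+ libraries as the one above.

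Dcx stood at 10.4, 10.2 and 2.48 CPM in CD133+Nestin+ libraries, against the 3.51, 1.68 and 3.01 CPM in CD133+ libraries. Replicate 3 of CD133+Nestin+ lay among the CD133+ libraries and the other pair lay above all of them. The change was 1.07 ± 0.48, with an adjusted p of 0.391 in limma. Dclk1 stood at 187, 133 and 180 CPM in CD133+Nestin+ and was above every CD133+ library, with a change of 0.63 ± 0.28 and an adjusted p of 0.369 in limma. Dclk2, at 24.9, 38.7 and 33.5 CPM, and Map2, at 172, 209 and 164 CPM in CD133+Nestin+ libraries, also lay above every CD133+ library. Groups that did not overlap thus numbered 3 of the 10 in the higher direction and 0 in the lower, against 6.56% and 10.9% of all genes.

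Stmn3 and Stmn4 split the CD133+Nestin+ group. Stmn3 stood at 49, 0.563 and 25.7 CPM and Stmn4 at 9.67, 0.895 and 11.8 CPM in CD133+Nestin+ replicates 1 to 3. Replicate 2 was below every CD133+ library for both genes, while replicate 3 lay above every CD133+ library for Stmn4 and replicate 1 above every CD133+ library for both. Stmn4 changed by 1.01 ± 0.63 (adjusted p = 0.567 in limma), and without CD133+Nestin+ replicate 2 by 1.89 with an adjusted p of 0.0193. Stmn3 was at -0.56 ± 1.02 (adjusted p = 0.858 in limma), and its sign turned to 0.96 without that library.

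Tubb3 stood at 74.8, 15.9 and 37.3 CPM, Mapt at 56.2, 25.2 and 31.3 CPM, Stmn2 at 36.5, 11.6 and 24.1 CPM and Stmn1 at 284, 109 and 242 CPM in CD133+Nestin+ libraries. All 4 overlapped the CD133+ group, with changes of 0.51 ± 0.62, 0.36 ± 0.47, 0.43 ± 0.54 and 0.04 ± 0.37 in that order. Against the CD133+ library of the same sort number, 5 of the 10 genes were higher in all 3 CD133+Nestin+ libraries (18.9% of all genes), namely Dclk1, Dclk2, Tubb3, Stmn2 and Map2, and 0 were lower in all 3 (24.2% of all genes). Leaving out 1 library turned the sign of Tubb3, Stmn1 or Mapt in some cases, to values between -0.23 and -0.02.

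**Figure D3:**
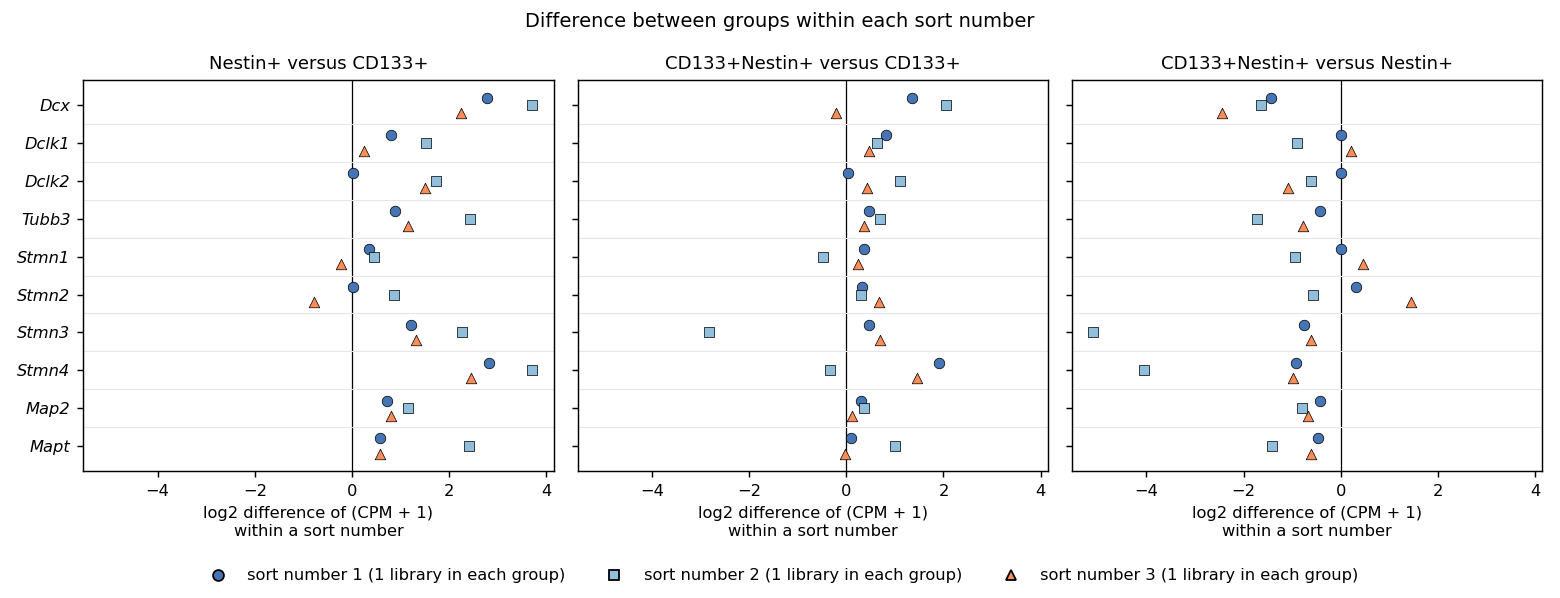
Log2 difference of (CPM + 1) between the libraries of 2 groups with the same sort number, for each gene and comparison, 1 point per sort number. In the left panel the points below 0 are those of Stmn1 and Stmn2 in sort number 3, and in the right panel Stmn3 and Stmn4 of sort number 2 lie at -5.09 and -4.04.

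CD133+Nestin+ cells stood below Nestin+ cells in most of these genes, but limma called 0 of the 10 in either direction. Over all genes 2.87% were called higher and 0.254% lower. With the block 1 gene was called lower, Dcx, against 1.12% of all genes, and 0 were called higher, against 4.97%. Unadjusted p was below 0.05 for Dcx, Stmn4 and Map2, and the authors' deposited table had 3 of the 10 at p below 0.05 and 0 at a false discovery rate below 0.05. For these counts too, shares of all genes were not computed. The median change was -0.73 (log2) where that of all genes was -0.04. The libraries of both groups also enter the comparisons above.

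Dcx was lower in each CD133+Nestin+ library than in every Nestin+ library, with a change of -1.84 ± 0.48 and an adjusted p of 0.0698 in limma, and 0.0253 with the block. Without CD133+Nestin+ replicate 1 it was called in limma, at a change of -2.13 and an adjusted p of 0.0389. Stmn4 and Map2 did not overlap between the groups either, at -1.98 ± 0.63 and -0.63 ± 0.25 (adjusted p = 0.149 and 0.284 in limma). These were the 3 genes lower without overlap, against 6.21% of all genes, and 0 were higher, against 11.1%. Within sort numbers 6 of the 10 were lower in all 3, against 20.4% of all genes, namely Dcx, Tubb3, Stmn3, Stmn4, Map2 and Mapt, and 0 were higher in all 3, against 21.9%.

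The remaining members were scattered. Stmn3 was at -2.16 ± 1.02 and Tubb3 at -0.98 ± 0.62, with adjusted p = 0.406 and 0.583 in limma. Within sort number 2 the difference of Stmn3 was -5.09 and that of Stmn4 -4.04, whereas within sort numbers 1 and 3 they were -0.76 and -0.62 for Stmn3 and -0.92 and -0.99 for Stmn4. Stmn2 was at 0.40 ± 0.54 and was higher in CD133+Nestin+ than in Nestin+ within sort numbers 1 and 3. Stmn1 was at -0.15 ± 0.37, with a positive sign without CD133+Nestin+ replicate 2 (0.26) or Nestin+ replicate 1 (0.03).

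Over the 3 groups together 2 of the 10 genes passed limma's F test, Dcx (adjusted p = 0.0072) and Stmn4 (adjusted p = 0.0256), against 9.5% of all genes. With the block 4 passed, Tubb3 and Map2 being added, against 16.5% of all genes. The count was 1 without Nestin+ replicate 2 or 3 or CD133+ replicate 1 or 2. By arithmetic group means in CPM, 9 of the 10 genes were highest in Nestin+, next in CD133+Nestin+ and lowest in CD133+. The share of all genes in that order was not computed. On the log2 scale of the fits 8 of the 10 followed that order, since Stmn3 was lower in CD133+Nestin+ than in CD133+ cells (-0.56). Stmn2 had its highest mean in CD133+Nestin+, at 24.1 ± 12.4 CPM, followed by 18.4 ± 10.5 in Nestin+ and 17.6 ± 10.2 in CD133+ (SD, n = 3 each).

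The libraries were also compared by sort number, which equals the passage number in the labels. Tubb3 passed an F test of the sort number in the fit with the block (adjusted p = 0.0198 in limma), as did 8.77% of all genes, and the other 9 did not. Its mean deviation from the group means was 0.88 (log2) in sort number 1, -0.92 in sort number 2 and 0.04 in sort number 3. The call of Tubb3 was lost without CD133+Nestin+ replicate 1 (adjusted p = 0.105 in limma), Nestin+ replicate 1 (0.085), CD133+ replicate 1 (0.0673) or CD133+ replicate 2 (0.0531). Unadjusted p was below 0.05 for Stmn1, Stmn2, Stmn3 and Mapt as well, and the share of all genes at that threshold was not computed.

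In all 3 groups the library of sort number 1 was the highest for Tubb3, Stmn1, Stmn2, Stmn3 and Mapt, 5 of the 10 genes, a pattern noticed after the values were seen and held by 17.7% of all genes. Stmn2 shows it plainly: it stood at 36.5, 29.2 and 28.9 CPM in the CD133+Nestin+, Nestin+ and CD133+ libraries of sort number 1, and at 8.17 to 24.1 CPM in the other 6 libraries. Map2 had its highest library in sort number 2 in all 3 groups. Dclk2 was lowest in sort number 1 in CD133+Nestin+ and Nestin+ and had nearly equal values, 24.9, 24.9 and 24.4 CPM, in the 3 libraries of that number. Listed genes took up 87.3% to 87.7% of the library total in sort number 1 and 65.9% to 81% in the other libraries. With every library rescaled to its listed genes, the sort number test gave Tubb3 an adjusted p of 0.0357 in limma. Stmn1, Stmn2, Stmn3 and Mapt did not pass in the same limma test, at adjusted p of 0.326, 0.135, 0.158 and 0.256. The pattern of highest libraries was read from CPM without that rescaling.

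Levels of different genes were compared per kilobase of merged exons, which counts every annotated isoform and so understates genes with long rarely used exons. Stmn1 was the highest in every group, at 110 ± 47.4 CPM per kb in CD133+Nestin+, 116 ± 28.5 in Nestin+ and 100.4 ± 19 in CD133+ libraries, and did not overlap with the next gene in any. In Nestin+ libraries Stmn3 (51.7 ± 19.8) and Tubb3 (39.4 ± 13) followed, overlapping each other, and then Map2 (17.4 ± 4.15), Stmn4 (12.8 ± 2.88), Dclk1 (12.8 ± 3.07) and Mapt (8.65 ± 2.04), each overlapping the next. Dclk2 (4.96 ± 2.32), Stmn2 (3.28 ± 1.88) and Dcx (2.16 ± 0.66) were the lowest, again with overlap between neighbours. In CD133+ libraries Dcx was last, at 0.216 ± 0.075 CPM per kb, with no overlap with Stmn4 at 1.2 ± 0.63. In CD133+Nestin+ libraries Dcx was also last, at 0.609 ± 0.357, with no overlap with Dclk2 at 3.07 ± 0.66.

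The make-up of the stathmin family was set side by side in the 3 groups. Stmn1 made up 62.3%, 62.6% and 64.8% of the summed stathmin level per kb in Nestin+ replicates 1 to 3, against 75.6%, 87.5% and 85.4% in CD133+ replicates 1 to 3. The groups did not overlap, and the Nestin+ libraries differed little among themselves. Stmn3 made up 25.1% to 31.3% in Nestin+ and 9.84% to 20.4% in CD133+ libraries, and Stmn4 made up 4.24% to 9.07% in Nestin+ and 0.635% to 1.53% in CD133+ libraries. The share of Stmn2 was 1.04% to 2.21% in Nestin+ and 1.83% to 3.39% in CD133+ libraries, which overlap. In CD133+Nestin+ libraries the share of Stmn1 spread from 72.9% to 94.9%, the highest being replicate 2, where Stmn3 made up 0.828%. These shares are descriptions, given without a test.

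**Figure D4:**
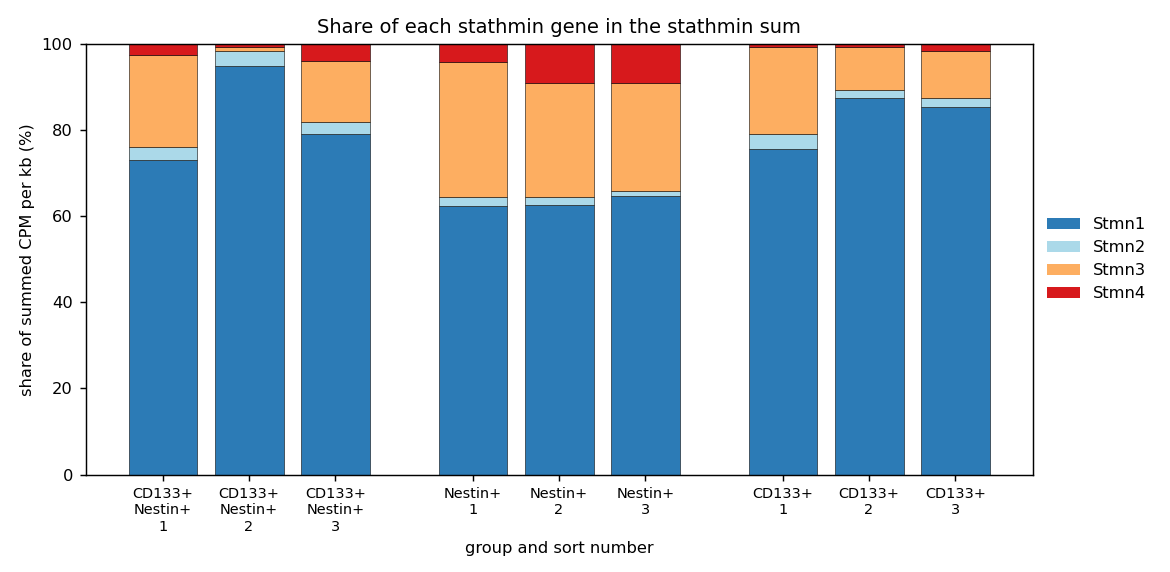
Share (%) of each stathmin gene in the sum of the 4 stathmin levels per kb of merged exons, 1 bar per library, ordered by group and sort number. The Stmn1 part ends between 62.3% and 64.8% in Nestin+ bars and between 75.6% and 87.5% in CD133+ bars.

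Over the 9 libraries, profiles of log2(CPM + 1) centred on each gene's mean were compared by their root mean square distance. Tubb3 and Mapt were each other's nearest within the set, at 0.36 (log2), and Dclk1 and Map2 at 0.35. Stmn3, Stmn4 and Dcx lay farthest from any other member, with nearest distances of 0.98 and 0.97 (both to Tubb3) and 0.90 (to Mapt). Among 9379 genes with a mean of at least 10 CPM, the 5 nearest to Dcx were Slitrk3 (0.27), Gria3 (0.30), Omg (0.35), Chrna4 (0.41) and Susd4 (0.44). Slitrk3, the nearest of these, stood at 21.2, 29.9 and 14.1 CPM in Nestin+ and at 3.25, 1.58 and 3.73 CPM in CD133+ libraries. The 5 nearest to Stmn1 were Ndufaf2, Abcd3, Trappc9, Aldh7a1 and Cinp, at 0.11 to 0.12. The points share libraries and scaling, so these distances are descriptions.

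Of 11 other tubulin genes in the table, Tubb4b (-2.33 ± 0.41), a beta tubulin of motile cilia, Tuba1b (-2.10 ± 0.53) and Tuba1c (-2.13 ± 0.60) fell in Nestin+ against CD133+ cells, with adjusted p of 0.00354, 0.0245 and 0.0415 in limma, and 0 rose (1 with the block, Tubb2a). Alpha tubulin genes are near-identical in sequence, so reads may have been divided between them. Tubb4b stood at 366, 199.8 and 148 CPM in Nestin+ and at 1100, 1597 and 791 CPM in CD133+ libraries. Tubb2a and Tubb4a, both abundant in neurons, stood at 1.5 ± 0.58 and 1.33 ± 0.58 and did not pass; both were named after their values were seen. The list's median was -0.47, and its count of lower genes was 1 without Nestin+ replicate 2 or 3 or CD133+ replicate 1 or 2, and 2 to 4 without any other library.

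Of 3 other genes with doublecortin domains, Rp1 (-3.43 ± 0.48) and Dcdc2a (-1.92 ± 0.34) fell in Nestin+ against CD133+ cells, and with the block Dcdc2b fell too. Rp1 and Dcdc2a are known from cilia, and ependymal genes moved with them: their summed level over 6 genes was 142 to 181 CPM in Nestin+ and 1099 to 2270 CPM in CD133+ libraries. Rp1 rose in CD133+Nestin+ against Nestin+ cells by 3.14 ± 0.48 and Dcdc2b by 1.76 ± 0.39, and Tubb4b rose there too, by 1.93 ± 0.41 (adjusted p = 0.0062, 0.0344 and 0.0282 in limma). In CD133+Nestin+ against CD133+ cells 0 of these 3 genes and 0 of the 11 tubulin genes were called by limma. With the block 1 tubulin gene was lower there, Tuba1c. Tubb4b was not called in CD133+Nestin+ against Nestin+ cells without CD133+Nestin+ replicate 1 or 3 or Nestin+ replicate 2 or 3. There, the count of doublecortin-domain genes called higher was 1 without CD133+Nestin+ replicate 2 or 3, CD133+ replicate 3 or any Nestin+ library. The part of ciliated cells in these values was not tested.

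Of 18 other microtubule-binding protein genes 1 fell in Nestin+ against CD133+ cells, Mapre3 (-1.41 ± 0.31), a plus-end tracking protein, and 0 rose, at a median of 0.15. No gene of this list was called lower without Nestin+ replicate 1 or CD133+ replicate 2, and with the block 2 rose and 2 fell. Of 15 tested LIS1-dynein, severing and kinase genes 0 were called, at a median of 0.19, and 1 rose with the block, as it did without CD133+Nestin+ replicate 2. In the other comparisons 0 genes of either list were called without the block.

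Of 9 genes for collapsin response mediators and the growth cone, 1 rose in Nestin+ against CD133+ cells, Crmp1, by 1.67 ± 0.41 (adjusted p = 0.0228 in limma), and 4 rose with the block. All 9 had positive changes, with a median of 0.61. Crmp1 stood at 49, 36.9 and 46.7 CPM in Nestin+ and at 21.1, 5.79 and 17.6 CPM in CD133+ libraries. The count was 0 without any 1 of the Nestin+ libraries or CD133+ replicate 2, and 3 without CD133+ replicate 1. In CD133+Nestin+ against CD133+ cells 0 were called, and 2 rose with the block.

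Markers of newborn neurons moved the same way as Dcx. Of 7 tested neuroblast factor genes Elavl4 (1.63 ± 0.38), which encodes a neuronal RNA-binding protein, and Sox11 (1.54 ± 0.39), a transcription factor of immature neurons, rose in Nestin+ against CD133+ cells, and 0 fell. The 7 genes summed to 564 to 935 CPM in Nestin+, 385 to 740 in CD133+Nestin+ and 193 to 354 in CD133+ libraries. Sox11 alone stood at 448 to 806, 297 to 642 and 141 to 275 CPM in the same order, so these sums largely follow that gene. The count called was 0 without Nestin+ replicate 2 or CD133+ replicate 2 and 1 without Nestin+ replicate 3 or CD133+ replicate 1. It was 2 or 3 without any other library, and 3 with the block. Of 4 tested genes of differentiated neurons 1 rose in Nestin+ against CD133+ cells, the synaptic gene Snap25, by 2.5 ± 0.42, and 2 rose with the block. Also with the block, 1 of the 4 fell in CD133+Nestin+ against Nestin+ cells. Summed with Slc17a6, a gene of the list that did not pass the filter, the 4 genes stood at 39.6 to 54.4 CPM in Nestin+ and 11.7 to 15.2 CPM in CD133+ libraries. Rbfox3, a marker of postmitotic neurons that is 1 of the 7 neuroblast list genes, stood at 3.26 to 5.12 CPM in Nestin+ and 5.25 to 6.67 CPM in CD133+ libraries and was not called (-0.46 ± 0.35).

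Markers of other cell types differed in the same comparison. Of 7 tested oligodendrocyte precursor genes 5 rose in Nestin+ against CD133+ cells, and their sum was 595 to 1091 CPM in Nestin+ and 67.6 to 144 CPM in CD133+ libraries. The count was 3 without Nestin+ replicate 2 or CD133+ replicate 2. Precursor genes also stood apart in CD133+Nestin+ replicate 1, at 461 CPM against 123 and 128 CPM in the other CD133+Nestin+ libraries. All 6 microglia and macrophage genes and all 3 tested endothelial genes fell in Nestin+, with sums of 19.3 to 55.8 and 9.58 to 17.5 CPM, against 548 to 1494 and 284 to 549 CPM in CD133+ libraries. Of 8 mitosis genes 0 were called, and 2 fell with the block. Their sums were 143 to 397 CPM in Nestin+ and 432 to 945 CPM in CD133+ libraries, where Top2a alone averaged 313 CPM. Yet 3 of the 8 changes were positive, those of Mki67 (0.99 ± 0.43), Aurkb (0.30 ± 0.35) and Kif11 (0.12 ± 0.43). The part of these cell types in the values of the 10 genes was not tested.

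**Figure D5:**
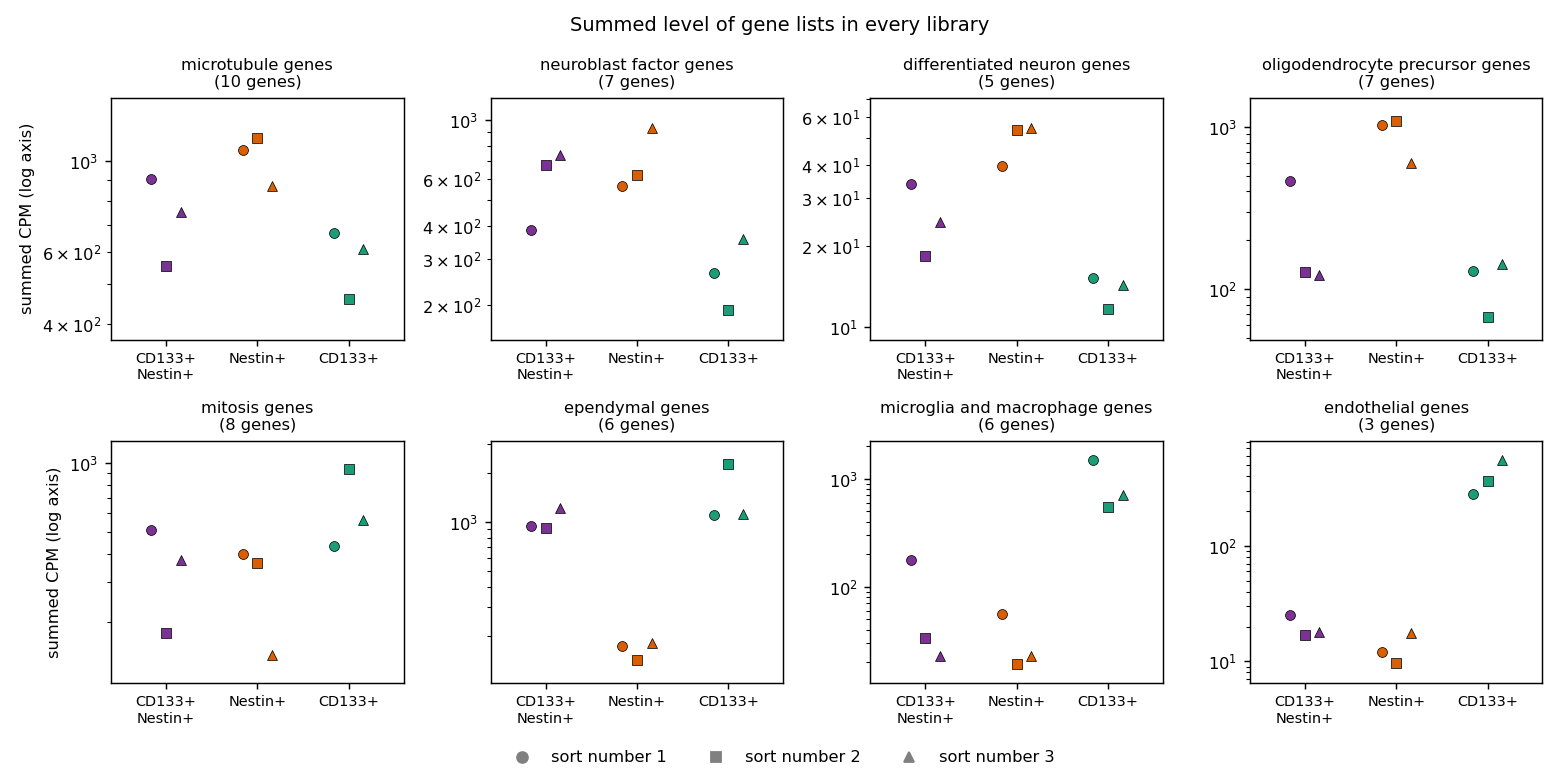
Summed CPM (log axis) of the 10 microtubule genes and of 7 marker lists in each library, by group, with the sort number as the symbol. The sum of the 10 genes lies at 870 to 1137 CPM in Nestin+ and at 460 to 668 CPM in CD133+ libraries, and that of oligodendrocyte precursor genes at 595 to 1091 and 67.6 to 144 CPM.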

How the data were processed

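RNA sequencing of 9 libraries (3 groups, 3 libraries each) was analysed. Per the submitters' processing notes, the tools were STAR 2.5.3a, Partek 8.0, bcl2fastq and limma and the genome build mm10, given without roles or order. Gene counting, annotation and strand setting are not given in the sources used here. The deposited table holds normalized values of 18329 genes, taken as CPM (reads scaled to 1000000 per library), with 0.0001 added by the authors. Both the unit and this offset are inferred from the values. Steps of low values put 1 read at 0.0285 to 0.0344 CPM, but 45.5% to 56.3% of low values were whole reads within 0.02 reads, so no count test was run. The second table deposited by the authors lists, for each gene and comparison, a ratio, its p-value and a false discovery rate (step-up).

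The 16143 genes that reached 1 CPM in 3 or more libraries were kept and analysed as log2(CPM + 1). The 3 group means were fitted in limma 3.58.1 (R 4.3.3) with trended, robust variances and Benjamini-Hochberg adjustment at 0.05. The procedure was run on simulated data with libraries drawn independently and no sort number effect, so that run does not cover the pairing described next. With its group's mean taken from each library, r across genes was 0.204 to 0.73 for the 9 pairs of libraries sharing a number. For the 18 other pairs r was -0.527 to 0.314. The numbers may therefore pair the samples. The main fit of the 3 group means left this pairing out, and a block on the number was fitted as an alternative. The labels give the sort number in each title and the same number as the passage, but do not say what libraries with 1 number share. For the 10 genes, a fit blocked on the number is printed where it changes a call or moves a count by over 1.5 times. For the other lists only some of the changes made by the block are printed. Alternatives were the block, a pseudocount of 0.1, filters of 0 and 5 CPM, quantile normalization, median centring, fitting the compared groups by themselves, a plain prior, and omission of each library. Rescaling to the listed genes, the block without CD133+Nestin+ replicate 2, and the alternatives of the sort number test were added after seeing the data. The 10 genes and the other lists were chosen with earlier results of these data known. From each other list up to 3 called genes of smallest F-test p were eligible to be named. Gene positions and merged exon lengths are from GENCODE M21 (GRCm38, the same build as mm10). Promoters are RefSeq's, matched by symbol for 6 of the 10 genes.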

Additional observations from a re-analysis of the deposited data

How the results depend on the processing

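The table of values has no counts, so fits of read counts were not run, and genes at low CPM are limited by few reads. In Nestin+ versus CD133+, the count of members called higher was 7 with the replicate block, 5 with median centring and 8 with the block without CD133+Nestin+ replicate 2; leaving out 1 library gave 1 to 5. In CD133+Nestin+ versus CD133+ it was 1 with the block without CD133+Nestin+ replicate 2 and 0 to 1 with 1 library left out. In CD133+Nestin+ versus Nestin+ the count called lower was 1 with the replicate block, 1 with the block without CD133+Nestin+ replicate 2 and 0 to 1 with 1 library left out. The F test over the groups called 4 with the block, 1 with a pseudocount of 0.1, 8 with the block without CD133+Nestin+ replicate 2 and 1 to 2 with 1 library left out, and the sort number test 0 to 3 with 1 library left out. Shares of all genes called were computed only for the main fit and the replicate block, so the other counts above describe the 10 genes alone. For the 10 genes the block changed no call beyond those already given. Map2 in Nestin+ versus CD133+ was no longer called with quantile normalization (adjusted p = 0.0576 in limma), without a trended robust prior (0.051) or after rescaling to the listed genes (0.0594). With the block and without CD133+Nestin+ replicate 2, the sign turned for Stmn3 in CD133+Nestin+ versus CD133+ (0.74) and for Stmn1 in CD133+Nestin+ versus Nestin+ (0.17). With 1 library left out, signs turned within -0.37 to 0.49 for Stmn2 in Nestin+ versus CD133+. In CD133+Nestin+ versus CD133+ the ranges were -0.14 to 1.07 for Tubb3, -0.23 to 0.46 for Stmn1, -1.54 to 0.96 for Stmn3 and -0.20 to 0.81 for Mapt. In CD133+Nestin+ versus Nestin+ they were -0.42 to 0.26 for Stmn1 and -0.057 to 0.83 for Stmn2. Median centring and quantile normalization shifted the all-gene median by 0.13 and 0.15 on the log2 scale in Nestin+ versus CD133+ and by 0.13 and 0.12 in CD133+Nestin+ versus CD133+, and the share of called genes that were higher in Nestin+ was 31.1% and 33.7%, against 20.6% without them. The signs of all 30 changes were the same under these scalings. The causes were not tested.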
